A study of Mus musculus with 74 samples.

Results

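NCOR occupancy of mouse liver was compared between hepatocyte-specific Gps2 knockout (LKO) and control (WT) livers over all 80813 NCOR peaks of the tag count table made for this mouse line, in 3 WT and 3 LKO libraries of the 74 samples of the series. No peak was left out, so every member of the comparison is one row of that table, and the measurement is the number of NCOR ChIP-seq tags in the peak. LKO mice carried Gps2 flox/flox alleles and Cre under the albumin promoter, which is active in hepatocytes, and the WT mice were Gps2 flox/flox animals of the same breedings without Cre. All mice were male C57BL/6 animals of 8 to 12 weeks on normal chow, and both groups therefore carried the floxed alleles. Whole livers were crosslinked with disuccinimidyl glutarate and formaldehyde, so nuclei of other liver cells, which keep Gps2, contributed to every library. The study's methods state that several immunoprecipitations were pooled for a library, and the labels do not say which animals went into which, so p-values measure the spread between libraries.

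NCOR, encoded by Ncor1, is a corepressor scaffold that binds unliganded nuclear receptors and other repressing transcription factors, and it carries the histone deacetylase HDAC3 together with TBL1, TBLR1 and GPS2. GPS2 is a small subunit of the same complex. In hepatocytes the complex is known for repressing genes of fatty acid oxidation at PPARα sites and genes of lipid synthesis at LXR, REV-ERB and thyroid hormone receptor sites. The comparison asks where NCOR stayed, left or appeared on the genome once its partner GPS2 was lost.

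The 3 rises and 3 falls of lowest p with total tags, with 1 peak per gene, and the peaks nearest the starts of Pdk4 and Cyp4a14, at which NCOR did not pass the test, are shown as the 201 bases around the peak centre on the + strand of mm9, with capitals for matches to the motifs searched. The motifs were AGGTCA, the element bound by most nuclear receptors; direct repeats of 2 copies of it, spaced by 0 to 5 bases, with at most 1 mismatch in 12 bases; AAAGTCCA (HNF4), TGTTTAC or TGTTTGC (FOXA), TTGCNNAA (CEBP), CCGGAAG (ETS), TTCNNNGAA (STAT), TGACTCA (AP-1), CACGTG (E-box), GGGCGG (GC box) and CCAAT, on both strands, with overlaps allowed. The first 3 sequences come from sites with more NCOR in LKO, an intron of Cux2 (chr5:122449023-122449223), an intron of Cyp2a4 (chr7:27098902-27099102) and an intron of Tmeff2 (chr1:50985704-50985904). The next 3 come from sites with less NCOR in LKO. They are an intron of Gse1 (chr8:123013913-123014113), an intronic site whose nearest gene start is that of Serpina10 (chr12:104847752-104847952) and an intergenic site upstream of Mroh2b (chr15:4785906-4786106). The last 2 are the Pdk4 promoter (chr6:5446382-5446582) and the peak upstream of Cyp4a14 (chr4:115170085-115170285).
Cux2: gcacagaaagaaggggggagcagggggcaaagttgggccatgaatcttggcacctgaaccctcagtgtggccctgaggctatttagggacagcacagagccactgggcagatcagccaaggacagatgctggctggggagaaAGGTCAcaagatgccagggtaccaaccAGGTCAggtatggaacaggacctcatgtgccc
Cyp2a4: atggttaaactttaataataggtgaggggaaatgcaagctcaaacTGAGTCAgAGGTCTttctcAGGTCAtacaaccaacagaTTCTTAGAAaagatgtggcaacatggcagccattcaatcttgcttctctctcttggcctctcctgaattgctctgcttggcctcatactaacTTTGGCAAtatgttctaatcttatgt
Tmeff2: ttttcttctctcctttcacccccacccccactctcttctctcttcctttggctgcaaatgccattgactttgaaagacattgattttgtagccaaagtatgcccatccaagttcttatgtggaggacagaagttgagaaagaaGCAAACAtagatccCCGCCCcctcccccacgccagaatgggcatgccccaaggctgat
Gse1: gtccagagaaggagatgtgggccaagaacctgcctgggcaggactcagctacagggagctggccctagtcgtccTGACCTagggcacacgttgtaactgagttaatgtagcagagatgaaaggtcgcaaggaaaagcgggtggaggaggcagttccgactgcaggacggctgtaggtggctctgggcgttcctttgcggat
Serpina10: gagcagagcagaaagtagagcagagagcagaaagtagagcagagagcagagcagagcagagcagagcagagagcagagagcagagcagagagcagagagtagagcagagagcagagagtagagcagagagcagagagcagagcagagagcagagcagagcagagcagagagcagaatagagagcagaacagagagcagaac
Mroh2b: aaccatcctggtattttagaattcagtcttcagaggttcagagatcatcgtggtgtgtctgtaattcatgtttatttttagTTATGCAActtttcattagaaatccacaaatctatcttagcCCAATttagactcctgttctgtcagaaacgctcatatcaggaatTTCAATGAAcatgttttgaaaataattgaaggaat
Pdk4: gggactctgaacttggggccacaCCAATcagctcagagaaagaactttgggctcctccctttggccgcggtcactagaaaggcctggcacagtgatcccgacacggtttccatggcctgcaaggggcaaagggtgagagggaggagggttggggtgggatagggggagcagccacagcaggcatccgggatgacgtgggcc
Cyp4a14: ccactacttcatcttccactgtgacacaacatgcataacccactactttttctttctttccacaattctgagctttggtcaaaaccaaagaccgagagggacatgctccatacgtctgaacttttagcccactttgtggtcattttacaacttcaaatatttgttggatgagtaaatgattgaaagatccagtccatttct
The Cux2 window held AGGTCA at 2 places, and the Cyp2a4 window held one STAT element, TTCTTAGAA. The Serpina10 window is a tandem run of short gagcag units with no match to any motif, and the Mroh2b window held a STAT element although its NCOR fell. AGGTCA occurred in 26.9% of the 80703 peaks that had a sequence window, and the Cyp4a14 window held no exact match to any element searched.

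The 6 libraries held 17.3 M to 22.1 M tags (M, 1000000), and the share of tags inside the peaks spread as widely within a genotype as between them. It was 13.1%, 12.9% and 8.26% in WT1, WT2 and WT3 and 11.3%, 14.7% and 7.33% in LKO1, LKO2 and LKO3, or 11.4% ± 2.73 in WT and 11.1% ± 3.70 in LKO (SD, n = 3). The difference, LKO minus WT, was -0.281 percentage points (exact permutation test, two-sided, p = 1, where 0.1 is the smallest p that 3 against 3 allows). Because the third library of each genotype captured less in its peaks, levels are given with counts scaled to total tags (normalised tags, per 10000000 total tags), and tests were run both with total tags and with TMM, which scales the libraries so that most peaks do not differ. Features of the changed peaks are given for the TMM calls, since total tags called too few. TMM factors ran from 0.678 (LKO3) to 1.34 (LKO2). The targeted gene was checked first. In the single GPS2 libraries the median over 49018 GPS2 peaks was 11.0 tags per 10000000 total tags in WT and 0.676 in LKO, and Gps2 RNA was 16.1 ± 0.709 CPM, the gene's share of all counted reads, in WT and 11.1 ± 1.92 in LKO (SD, n = 4, whole liver). Ncor1 RNA was itself lower in LKO, at 71.7 ± 18.6 against 112 ± 5.85 CPM (log2 fold change -0.63, adjusted p = 0.0021), and NCOR protein was not measured in these files. Alb at 83700 CPM in WT marked the tissue as liver. The summed RNA of 7 myeloid markers was 148 to 153 CPM in WT and 201 to 235 in LKO, with all 7 higher. That of 5 stellate cell markers was 136 to 144 and 239 to 254, with all 5 higher. The sum of 5 hepatocyte markers rose as well. It was 110000 to 114000 CPM in WT and 145000 to 174000 in LKO, with 3 higher, Alb among them, and 1 lower. Sums of 5 endothelial and 4 cholangiocyte markers were also higher in every LKO library than in any WT library, with 2 of each higher and none lower.

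Few NCOR peaks passed the test. With total tags, 10 peaks had more NCOR in LKO and 4 had less (edgeR quasi-likelihood test, adjusted p below 0.05), which is 0.0124% and 0.00495% of the peaks. With TMM, 231 peaks (0.286%) were higher and 128 (0.158%) were lower, and all 14 peaks called with total tags were among them. The median log2 fold change, LKO over WT, was -0.03 with total tags and 0.00 with TMM. Only 6.12% of the peaks moved beyond 2-fold in either direction, on either scale. Before adjustment, 1438 peaks were higher and 815 lower at p below 0.05 with total tags, together fewer than that threshold gives by chance. With TMM they were 4132 and 2973, together more than chance gives. The few calls with total tags therefore do not show that few sites changed.

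These counts depended on single libraries. With TMM the higher and lower counts were 35 and 44 without WT1, 12 and 14 without WT2, 137 and 70 without WT3, 633 and 156 without LKO1, 59 and 40 without LKO2, and 264 and 316 without LKO3. With total tags they were 2 and 0 without WT1, 3 and 6 without WT3, 9 and 0 without LKO1, 2 and 0 without LKO2, and 48 and 30 without LKO3. Without WT2 the edgeR test with total tags called no peak. At an unadjusted p below 0.05, 1078 were then higher and 376 lower, together again fewer than that threshold gives by chance, as with all 6 libraries. LKO libraries also agreed less with each other than WT libraries did: the chi-square per peak between 2 libraries, where 1 is sampling noise, was 1.38 to 1.57 within WT and 1.86 to 2.08 within LKO, against 1.62 to 2.62 between genotypes.

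**Figure D1:**
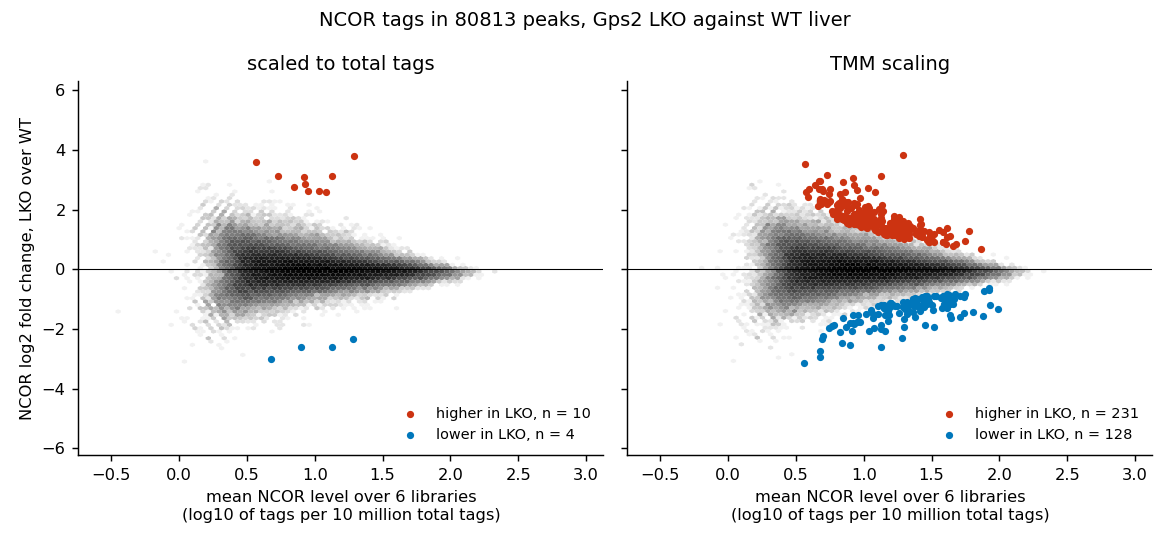
NCOR log2 fold change, Gps2 LKO over WT, against the log10 of the mean NCOR level over the 6 libraries (normalised tags), with total tags (left) and with TMM (right). Shading gives the density of peaks, and coloured points are the peaks past the adjusted p of 0.05, 10 higher and 4 lower with total tags and 231 higher and 128 lower with TMM, around a cloud centred near 0.

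The groups did not overlap at 4591 peaks (5.68%) with total tags and at 10619 (13.1%) with TMM. Of the peaks called with TMM, the groups did not overlap at 194 of the 231 higher and at 115 of the 128 lower. The called rises were largest in LKO2 or LKO3: the highest library was LKO1 at 22 peaks, LKO2 at 104 and LKO3 at 105. The called falls were smallest in LKO3, with a median log2 level relative to the WT mean of -1.41 in LKO1, -1.47 in LKO2 and -0.75 in LKO3. Taken by the deposited peak lists, 326 peaks lay in all 3 WT lists and in no LKO list, of which 18 were lower with TMM, and 267 lay in all 3 LKO lists and in no WT list, of which 32 were higher. All 6 lists shared 20479 peaks, with 51 higher and 61 lower.

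The largest rise in NCOR lay in an intron of Cux2, which encodes a homeobox repressor that is expressed at a higher level in female than in male liver. The peak at chr5:122448996-122449250, 48.7 kb inside the gene, held 4.07, 2.19 and 1.16 normalised tags in the WT libraries and 38.5, 51.9 and 19.5 in the LKO libraries. Every LKO library lay well above every WT library, and the log2 fold change was 3.81 ± 0.58 (SE, n = 3, adjusted p = 3e-06), or 3.82 with TMM. The adjusted p was 0.071 without WT2, and the peak passed without each of the other libraries in turn. The neighbouring peak at chr5:122450282-122450567 held 4.52, 2.74 and 0.58 tags in WT and 25.8, 36.0 and 10.8 in LKO (log2 fold change 3.13 ± 0.56, adjusted p = 0.00084). Both were found in all 3 LKO peak lists, and the first in none of the WT lists. A further 2 peaks of the same intron, at chr5:122453588-122453880 and chr5:122458387-122458551, rose by log2 fold changes of 2.85 and 3.59 from under 4 normalised tags in every WT library. The first of these overlapped between groups with total tags, because LKO3 (2.71) lay below WT1 (3.62). Cux2 was the gene with most called peaks under total tags, and 16 of its 19 peaks had a positive log2 fold change on both scales. A further site of the same intron, chr5:122398201-122398745, 99.4 kb from the start, held 50.6, 49.3 and 29.6 normalised tags in WT and 15.5, 30.3 and 22.2 in LKO. It was lower with TMM (log2 fold change -0.89, adjusted p = 0.045) and did not pass with total tags (-0.93, adjusted p = 1), where the groups overlapped. Cux2 RNA went from 0.341 ± 0.224 to 15.2 ± 3.22 CPM (SD, n = 4, log2 fold change 5.49, adjusted p = 3.5e-09).

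Cyp2a4, a female-biased steroid hydroxylase, had a rising intronic peak at chr7:27098913-27099091, with 2.71, 1.64 and 0.58 normalised tags in WT and 7.51, 28.8 and 8.68 in LKO. All LKO libraries exceeded all WT libraries, with LKO2 the highest (log2 fold change 3.08 ± 0.58, adjusted p = 0.0035). All 9 peaks of Cyp2a4 had positive log2 fold changes on both scales, and 4 of them were called with TMM. Cyp2a4 has near-identical Cyp2a paralogs next to it, so the assignment of its tags and of its RNA is uncertain. Its RNA went from 3.30 ± 1.31 to 1190 ± 111 CPM (log2 fold change 8.51, adjusted p = 3.3e-13). Slc22a27, an organic anion transporter gene, had no call with total tags and 3 of its 5 peaks higher with TMM. The leading one, chr19:7967725-7967919, held 5.43, 2.74 and 3.48 tags in WT and 10.3, 24.2 and 15.2 in LKO (TMM log2 fold change 2.09 ± 0.37, adjusted p = 0.0019). Its RNA rose by a log2 fold change of 6.41 (adjusted p = 7.4e-10).

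At Tmeff2, which encodes a transmembrane protein with follistatin domains, NCOR rose at chr1:50985706-50985903, 1.4 kb from the start site, from 4.97, 3.28 and 1.74 to 15.5, 32.4 and 14.1 normalised tags (log2 fold change 2.58 ± 0.54, adjusted p = 0.020). The peak lay in all 3 LKO lists and in no WT list, and 4 of the 9 Tmeff2 peaks were called with TMM. Tmeff2 RNA rose by a log2 fold change of 6.04 (adjusted p = 1.3e-11). The other rises called with total tags lay near genes that had too little RNA to be tested. A site 5.6 kb upstream of Cib4 (chr5:30853669-30853883) held 1.36, 2.19 and 4.06 tags in WT and 19.7, 14.9 and 11.4 in LKO (log2 fold change 2.61 ± 0.56, adjusted p = 0.024). A site 64.8 kb upstream of Nipal2 (chr15:34673076-34673364) held 3.62, 1.64 and 3.48 tags in WT and 6.57, 23.1 and 25.5 in LKO (2.62 ± 0.55, adjusted p = 0.020). The 2 remaining rises overlapped between groups. The site 5.8 kb upstream of Ankrd55 (chr13:113072748-113072925) was at 0 tags in LKO1 and at 16.4 and 12.5 in LKO2 and LKO3, and the intronic site of Kcnip4 (chr5:49451370-49451574) held 2.82 tags in LKO1, below the 3.28 of WT2.

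TMM added a rise upstream of Alb, the albumin gene, whose promoter also drives the Cre transgene. The peak 10.6 kb upstream of its start (chr5:90879083-90879421) held 40.2, 35.0 and 30.1 normalised tags in WT and 92.5, 102 and 56.4 in LKO. The groups did not overlap, and the log2 fold change was 1.27 ± 0.17 with TMM (adjusted p = 1.5e-05) but did not pass with total tags (1.25 ± 0.44, adjusted p = 0.96). A weaker peak at the Alb promoter itself (chr5:90889626-90889813) went from 10.9, 9.30 and 5.80 to 21.6, 25.2 and 11.4 tags (TMM log2 fold change 1.18, adjusted p = 0.039). The sequence of the transgene is not given in the sources used here, and where it is like the gene their tags cannot be told apart. H3K27ac at the pair of called peaks had log2 fold changes of 0.50 and 0.23. The other 9 of the 11 Alb peaks were not called, and the median over all 11 was -0.05 with total tags and -0.03 with TMM. Alb RNA was also higher in LKO, at 129000 ± 9310 against 83700 ± 1690 CPM (log2 fold change 0.63, adjusted p = 4.1e-06). Further TMM rises of the naming rule lay 87.6 kb downstream of the start of Akr1d1, a bile acid 5β-reductase (log2 fold change 2.04, adjusted p = 0.0020), 328.5 kb upstream of Sall1 (2.11, adjusted p = 0.0026), at Ankrd63 (2.15, adjusted p = 0.0020) and 120.2 kb upstream of Stmnd1 (2.02, adjusted p = 0.0036).

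**Figure D2:**
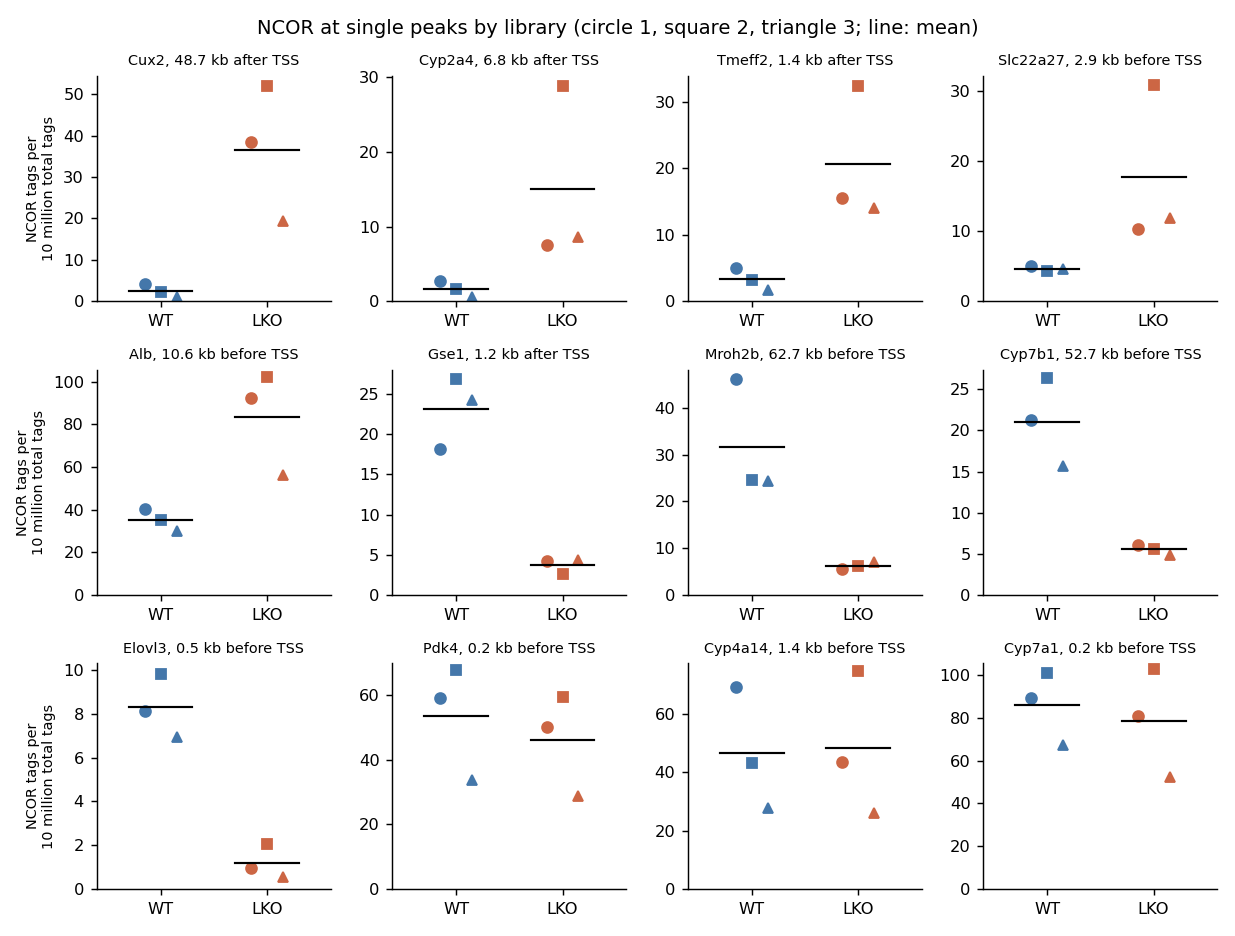
NCOR normalised tags in each of the 3 WT and 3 LKO libraries at 12 named peaks, one panel per peak, each from 0, with the mean of 3 libraries as a line. At Cux2, Cyp2a4, Tmeff2, Slc22a27 and Alb the LKO points lie above all WT points, at Gse1, Mroh2b, Cyp7b1 and Elovl3 they lie below them, and at Pdk4, Cyp4a14 and Cyp7a1 the groups overlap.

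The fall of lowest p with total tags was in an intron of Gse1, which encodes a subunit of a histone deacetylase and demethylase complex, 1.2 kb from its start site (chr8:123013929-123014097). The WT libraries held 18.1, 26.8 and 24.3 normalised tags and the LKO libraries 4.22, 2.57 and 4.34. All LKO libraries lay under all WT libraries, with a log2 fold change of -2.61 ± 0.54 (adjusted p = 0.018). Gse1 RNA was lower as well, at 20.2 ± 3.96 against 47.7 ± 1.85 CPM (log2 fold change -1.22, adjusted p = 2e-06). A site 9.8 kb upstream of N4bp2 (chr5:66144878-66145081) went from 16.3, 6.02 and 2.90 to 0.469, 0.514 and 2.17 tags (log2 fold change -3.00 ± 0.67, adjusted p = 0.041). The intronic repeat 21.8 kb from the start of Serpina10 (chr12:104847772-104847932) went from 10.9, 25.2 and 4.64 to 2.82, 2.06 and 1.63 tags (-2.60 ± 0.56, adjusted p = 0.027). Serpina10 has the nearest start site, and the intron is not taken as its own. Serpina10 RNA was 192 ± 6.23 CPM in WT and 198 ± 15.4 in LKO. The site 62.7 kb upstream of Mroh2b (chr15:4785884-4786128) went from 46.1, 24.6 and 24.3 to 5.63, 6.17 and 7.05 tags (-2.33 ± 0.52, adjusted p = 0.041), the highest WT level of the 4 falls.

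Next by unadjusted p, and not passing with total tags, was a site 28.1 kb upstream of Abcg1, a cholesterol exporter and LXR target (chr17:31166426-31166638). It held 9.95, 19.7 and 5.80 normalised tags in WT and 2.35, 2.06 and 1.63 in LKO (log2 fold change -2.51 ± 0.57, adjusted p = 0.053, and 0.0025 with TMM). Among the falls called with TMM alone were male-biased genes of steroid and lipid metabolism. At the enhancer 52.7 kb upstream of Cyp7b1, the oxysterol 7α-hydroxylase (chr3:18195903-18196241), NCOR went from 21.2, 26.3 and 15.7 to 6.10, 5.65 and 4.88 tags (TMM log2 fold change -1.87 ± 0.31, adjusted p = 0.00079, and 0.23 with total tags). This was the single peak called among 15 of Cyp7b1. At the promoter of Elovl3, a fatty acid elongase (chr19:46205804-46206064), it went from 8.14, 9.85 and 6.96 to 0.939, 2.06 and 0.542 tags (TMM -2.74 ± 0.53, adjusted p = 0.0045, and 0.093 with total tags). RNA of both genes was lower in LKO, by log2 fold changes of -2.64 for Cyp7b1 and -2.68 for Elovl3. A pair of adjacent peaks upstream of Eid2 (chr7:29028966-29029393 and chr7:29029404-29029581) fell by -1.88 and -2.05 with TMM, the first from 47.9, 56.4 and 30.1 to 15, 13.9 and 6.51 tags.

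Changed peaks were mostly single. With called TMM peaks within 50000 bp joined, the 231 rises formed 202 loci, of which 18 held at least 2 called peaks, and the 128 falls formed 110 loci, of which 14 did. The loci with most rising peaks were Adamts2 and the Cyp2a4 and Nlrp9c region with 5 each, and Cux2 and Tmeff2 with 4 each. Among the falls, Rassf3 had 4 peaks, with TMM log2 fold changes from -1.48 to -0.70, and the Elovl3 and Nolc1 region had 3. Rassf3 peaks did not pass with total tags.

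The NCOR response was then read by the lists of genes whose start site was nearest. Of the 120 peaks of 15 female-biased liver genes, 5 were higher with total tags, against 0.0124% of all peaks, and 11 were higher and 1 lower with TMM, against 0.286% and 0.158%. The rises with TMM lay at 4 of the genes, Cux2, Cyp2a4, Cyp3a41a and Sult3a1. Cux2 held 4 of the 5 rises with total tags and 5 of the 11 with TMM, and Cyp2a4 held 1 and 4. Peaks of one gene lie near each other, so these counts are not counts of separate genes. The median log2 fold change of the 120 peaks was 0.45 with total tags and 0.46 with TMM, beside -0.03 and 0.00 over all peaks, and 88.3% lay above 0 with TMM. RNA was at least 2-fold higher for 8 of the 10 genes tested, where the background over all 12220 genes tested was 3.25% higher and 1.38% lower. Male-biased genes had 136 peaks with a median of -0.13 and -0.11. Of these 3 were lower with TMM, at Cyp7b1, Elovl3 and Hsd3b5, and 1 was higher, near Nudt7. RNA was at least 2-fold lower for 7 of the 13 male-biased genes. The Hsd3b5 site, 32.4 kb upstream of this steroid dehydrogenase gene, went from 43.9, 52.0 and 25.5 to 7.04, 27.2 and 19.0 tags, overlapping with total tags (TMM -1.15, adjusted p = 0.023).

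None of the 232 peaks of 40 PPARα target genes passed on either scale. With 0.286% higher and 0.158% lower over all peaks with TMM, a count of 0 is near the background. Their median was -0.05 on both scales, while RNA was at least 2-fold higher for 8 of the 40. The promoter peak of Pdk4, the kinase that restrains pyruvate oxidation, held 59.2, 67.9 and 33.6 normalised tags in WT and 50.2, 59.6 and 28.7 in LKO. The groups overlapped, with a log2 fold change of -0.21 ± 0.44 with total tags and -0.18 ± 0.17 with TMM (adjusted p = 1 and 0.84). The peak upstream of Cyp4a14, a fatty acid ω-hydroxylase, held 69.2, 43.2 and 27.8 tags in WT and 43.7, 75 and 26 in LKO (0.04 ± 0.44 and 0.04 ± 0.19, adjusted p = 1 and 0.97). Over the 3 peaks within 20000 bp of its start the log2 fold changes ran from -0.15 to 1.62 with total tags and from -0.13 to 1.68 with TMM, none of them called. RNA of these genes rose by log2 fold changes of 1.17 for Pdk4 and 4.85 for Cyp4a14. For Fgf21, a fasting hormone, and Acot3, a peroxisomal thioesterase, RNA rose by 4.30 and 3.98, and the NCOR peaks nearest their starts were at 0.56 and 0.44 with TMM (adjusted p = 0.66 and 0.57). The standard errors of these folds bound what could be seen, since a change of 1 log2 unit is only about 2 standard errors with total tags. With TMM the standard errors were smaller, at 0.17 for Pdk4, 0.19 for Cyp4a14, 0.33 for Fgf21 and 0.22 for Acot3.

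At genes of the other programmes that NCOR is known to repress, counts of 0 or 1 are likewise near the TMM background of 0.286% higher and 0.158% lower. Lipogenic and LXR genes had 213 peaks with 1 lower with TMM (Abcg1) and a median of -0.13 and -0.11. Circadian clock and REV-ERB genes had 168 peaks with none called and a median of -0.07 and -0.06, and the Nr1d1 promoter peak stood at -0.09 and -0.07. Thyroid hormone receptor targets had 116 peaks, with 1 lower with TMM at Thrb and a median of -0.15 and -0.13. Genes of cholesterol synthesis had 146 peaks with none called, and genes of bile acid metabolism 146 with 1 higher at Cyp7a1 and 1 lower at Cyp7b1. At Cyp7a1, the rate-limiting enzyme of bile acid synthesis, the promoter peak held 89.5, 101 and 67.2 tags in WT and 80.7, 103 and 52.6 in LKO (-0.13 and -0.11), and the called site lay 13.2 kb downstream of the start site (TMM 1.58, adjusted p = 0.021). Glucose metabolism genes had 3 of 164 peaks higher with TMM, at Irs2 and Ppargc1a, and genes of the corepressor complex 0 of 121. Hepatocyte identity genes had 3 of 189 higher, at Alb and Cebpa. For the remaining lists, TMM called 1 peak higher of 66 at amino acid stress genes (Vldlr) and 1 of 112 at acute phase genes (Fgg), 1 lower of 340 at nuclear receptor genes (Thrb) and 0 of 23 at fibrosis genes. Markers of Kupffer and other myeloid cells, endothelial cells, stellate cells and cholangiocytes had 12, 73, 13 and 15 peaks, none of them called.

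By class of peak, the medians of NCOR moved little. Classes were set without NCOR values, by position and by overlap with peaks found in WT livers. These were peaks of GPS2, PPARα, the histone marks H3K4me3 (active promoters) and H3K27ac (active promoters and enhancers) and RNA polymerase II. A mark present only in LKO did not count. Promoter peaks, within 1000 bp of a start site, had a median log2 fold change of -0.10 with total tags and -0.07 with TMM, peaks in gene bodies -0.03 and 0.00, and intergenic peaks 0.03 and 0.05. The 41673 peaks with GPS2 in WT stood at -0.05 and -0.02, and the 39140 without at 0.02 and 0.05. The medians of sites that had carried GPS2 and of sites that had not thus lay less than 0.1 log2 units apart, and the groups overlapped in their shares of tags (exact permutation test, two-sided, p = 0.4). The 53021 peaks with PPARα stood at -0.04 and -0.02, and the 27792 without at 0.04 and 0.07. Peaks with both GPS2 and PPARα stood at -0.05 and -0.03.

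Among the chromatin classes, H3K27ac divided the peaks most widely. The 21224 peaks without H3K27ac in WT had medians of 0.13 and 0.16, and the 59589 with it -0.06 and -0.03. Peaks without the mark took 14.6% ± 0.230 of the peak tags of a WT library and 16.4% ± 0.606 of those of an LKO library (SD, n = 3), a log2 difference of 0.17. No WT library overlapped an LKO library (exact permutation test, two-sided, p = 0.1, the smallest possible, and 0.236 adjusted over 26 classes). H3K4me3 peaks took 39.5% ± 0.183 and 38.0% ± 0.330, and Pol II peaks 25.7% ± 0.086 and 24.7% ± 0.574, each also at p = 0.1 by the exact permutation test and 0.236 adjusted. With 3 libraries a group, no class could pass. By level, the lowest of 5 equal bins of peaks had medians of 0.06 and 0.09 and the highest -0.07 and -0.05 (exact permutation test on shares, two-sided, p = 0.2 for both). The part of peak level in the class medians was not tested.

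Called rises were seldom at promoters. With TMM, 9 of the 231 higher peaks lay at promoters, 107 in gene bodies and 115 between genes, where the shares of all peaks were 21.3%, 44.4% and 34.2%. In WT livers, 129 of the same 231 carried GPS2 (55.8%, against 51.6% of all peaks) and 186 PPARα (80.5% against 65.6%). There, 101 carried H3K27ac (43.7% against 73.7%) and 14 Pol II (6.06% against 20.3%). Sites that gained a mark only in LKO are counted here as without it. The 128 lower peaks were the stronger ones, with a median level of 23.0 normalised tags against 11.5 for the higher and 8.05 for all. Of these lower peaks, 88 carried GPS2 (68.8%), 115 PPARα (89.8%) and 94 H3K27ac (73.4%) in WT. These shares depend on peak level. Among the 33394 peaks with a mean of at least 20 tags (median level 19.8), 84.3% carried GPS2, 93.0% PPARα and 86.4% H3K27ac. Both changed sets lay below these shares, although they lay above or near those of all peaks for GPS2 and PPARα. The part of peak level in these shares was not tested.

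**Figure D3:**
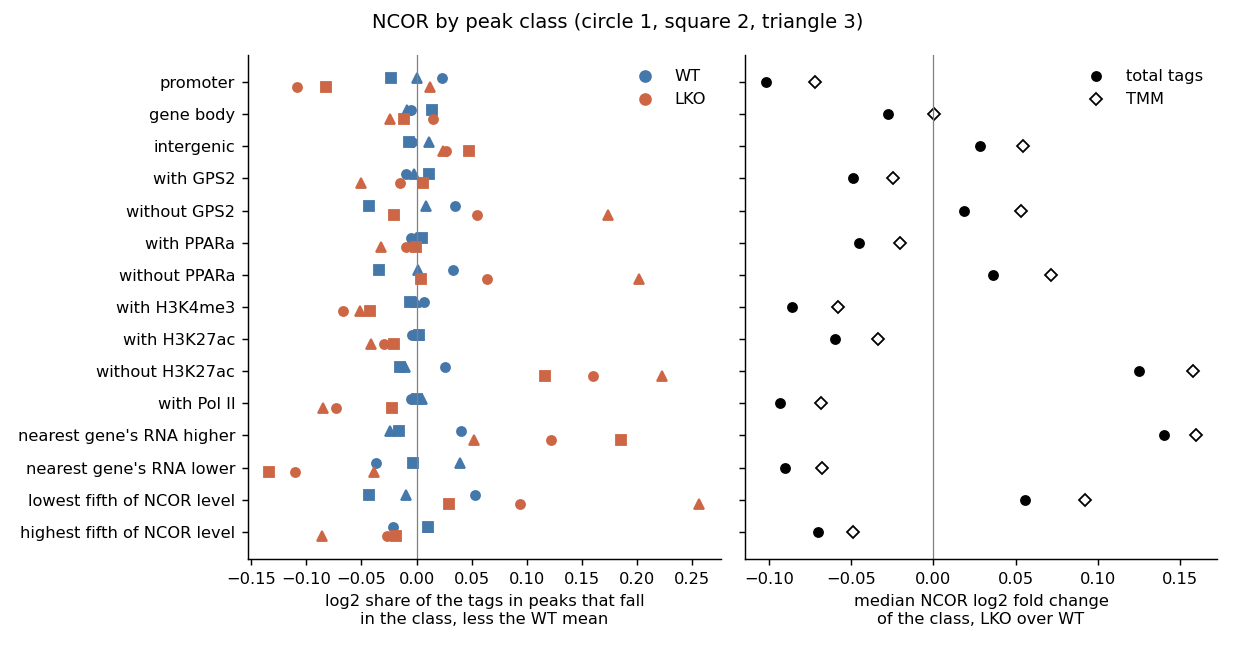
Left, the log2 share of each library's peak tags that falls in a peak class, less the WT mean, with one mark per library. Right, the median NCOR log2 fold change of the class, LKO over WT, with total tags and with TMM. All medians drawn lie between -0.10 and 0.16, and the LKO marks lie apart from the WT marks for peaks without H3K27ac and overlap for peaks with or without GPS2.

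The feature that set the rises apart in sequence was the STAT element TTCNNNGAA, the palindrome bound by STAT5, which carries growth hormone signals in liver, and by the repressor BCL6. It lay within 100 bp of the centre of 105 of the 231 higher peaks (45.5%), of 6 of the 128 lower peaks (4.69%) and of 5882 of all 80703 peaks with a sequence window (7.29%). With total tags it was in 6 of the 10 higher peaks. Of the other spacings between TTC and GAA, that of 4 bases was in 12.1% of the higher peaks against 5.10% of all, and those of 1, 2, 5 and 6 bases were in 3.03% to 7.79% against 4.95% to 5.66%. CEBP elements were in 28.6% of the higher peaks against 17.2% of all, FOXA elements in 19.0% against 12.6% and AGGTCA in 30.7% against 26.9%. Direct repeats spaced by 1 base, the PPARα and HNF4 type, were in 1.73% of the higher and 3.91% of the lower peaks, against 2.07% of all. The commonest STAT word was TTCCAGGAA, read on the other strand as TTCCTGGAA, in 27 of the 105. The element lay closer to the peak centre in the 105 peaks, at a median of 28.0 bases, than in the other 5777, at 46.0 bases.

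The rise at these elements was larger in LKO2 and LKO3 than in LKO1. Over the 105 called peaks with the element, the median log2 level relative to the WT mean was 0.65 in LKO1, 1.72 in LKO2 and 1.78 in LKO3. Over the 126 called peaks without it, it was 1.19, 1.57 and 1.38. Across all peaks that hold the element, whether called or not, the share of peak tags was 7.04%, 6.95% and 6.97% in the WT libraries and 7.03%, 8.45% and 8.46% in the LKO libraries. LKO1 thus lay within the range of the WT libraries (exact permutation test, two-sided, p = 0.2, and 0.9 adjusted over 16 motifs). Without LKO1 the element was in 367 of 633 higher peaks (58.0%), without LKO2 in 19 of 59 (32.2%) and without WT2 in 4 of 12 (33.3%). The median log2 fold change with TMM over all 5882 peaks with the element was 0.22, and it was above that of other peaks in each of the 5 level bins, from 0.44 against 0.07 in the lowest to 0.08 against -0.06 in the highest.

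In the NCOR libraries of the Ppara mouse line, the share of peak tags at the element also varied between libraries of one genotype. Over 70605 matched peaks it was 7.92%, 9.20% and 7.10% in the 3 WT libraries of that line and 8.44%, 8.62% and 7.33% in the 3 KO libraries. Over the same peaks the WT libraries of the Gps2 line stood at 7.14%, 7.04% and 7.08%, and LKO2 and LKO3 at 8.57% and 8.63%. The part of such variation between libraries in the rises at STAT elements was not tested.

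**Figure D4:**
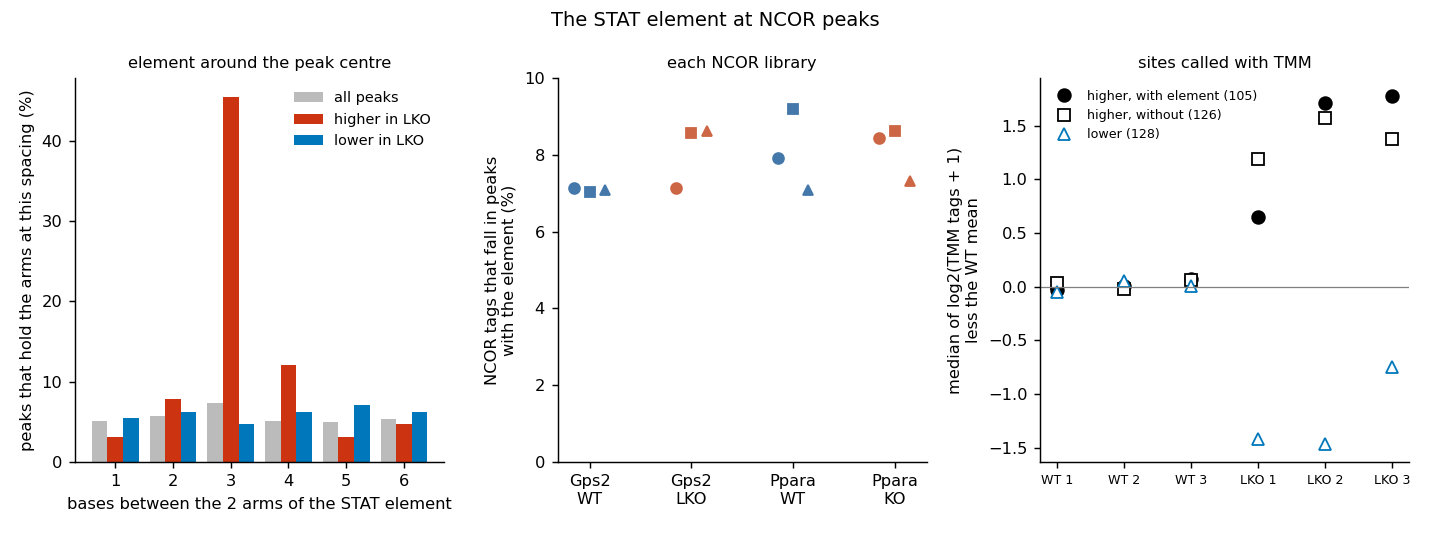
Left, percent of all peaks and of the peaks called higher or lower with TMM that hold the STAT element at each spacing of its arms in bases. Middle, percent of each NCOR library's peak tags in peaks with the element, over the 70605 peaks matched between both mouse lines. Right, median log2 level of the called peaks in each library of the Gps2 line, less the WT mean. The spacing of 3 bases is at 45.5% in the higher peaks against 7.29% in all, and LKO1 lies with the WT libraries of its line in the middle panel.

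Other readouts of the same genotypes were set beside the changed sites. H3K27ac was measured in 2 WT and 2 LKO libraries, over histone mark regions of WT and LKO livers together. Its median log2 fold change was 0.39 at the 160 higher peaks that overlap such a region, with 128 of 160 above 0 (80.0%). It was -0.10 at 103 lower peaks, with 43 above 0 (41.7%), and 0.05 over all 68705 peaks with a value (61.6% above 0). The higher peaks without a STAT element stood at 0.76 and those with it at 0.20. The sign of the H3K27ac change was that of the NCOR change at most of the sites with a value. Of the genes nearest to higher peaks, 18 of 122 with an RNA value rose at least 2-fold (14.8%) and 4 fell (3.28%). Of those nearest to lower peaks, 14 of 77 fell (18.2%) and 4 rose (5.19%). Among all genes nearest to a peak 3.06% rose and 1.42% fell. The split by element was uneven here too: without a STAT element 15 of 63 genes rose and 0 fell, and with one 6 of 67 rose and 4 fell. Read from the genes, the 1763 peaks nearest to a gene with higher RNA had NCOR medians of 0.14 and 0.16, with 34 higher and 5 lower with TMM, and the 1069 nearest to a gene with lower RNA had -0.09 and -0.07, with 4 higher and 18 lower. In bulk liver, a change in the share of a cell type and a change per cell cannot be told apart.

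PPARα occupancy is given as levels only, because its 3 WT libraries of the Gps2 line differed by less than sampling noise (chi-square per peak 0.923 to 0.937) and were counted as 1 sample. The median log2 ratio of PPARα, LKO over WT, was 0.60 over all peaks with a value, 0.99 at the peaks with more NCOR and 0.18 at those with less. Among the higher NCOR peaks it was 1.37 without a STAT element and 0.32 with it. In Ppara KO livers, where other samples were compared, the NCOR peaks matched to the higher and lower sites had medians of -0.26 and -0.19 with total tags, beside -0.30 over all matched peaks, and 0.01, 0.11 and 0.00 with TMM.

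**Figure D5:**
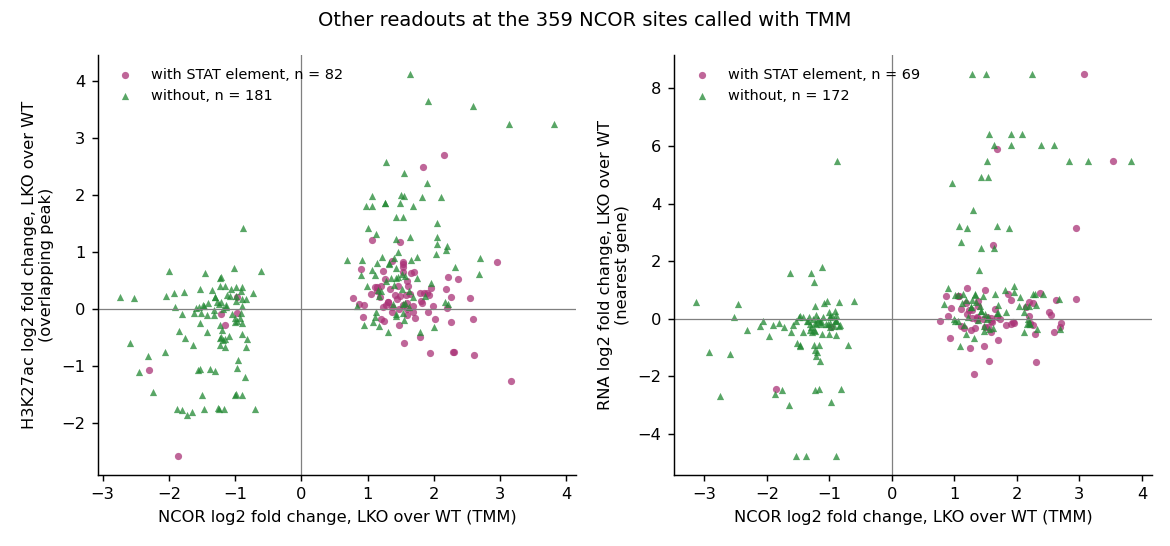
H3K27ac log2 fold change of the overlapping region (left) and RNA log2 fold change of the nearest gene (right) against the NCOR log2 fold change with TMM, all LKO over WT, one point for each of the 359 called peaks with a value, by presence of the STAT element. H3K27ac lies above 0 at 128 of 160 higher peaks and at 43 of 103 lower peaks.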

How the data were processed

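NCOR ChIP-seq tags were taken from a table of raw tag counts over 80813 peaks in 3 WT and 3 LKO livers. The authors aligned reads to mm9 with Bowtie2 and deposited the HOMER counts unscaled, with the total tags of each library (17.3 M to 22.1 M) in the column headers, with no tool versions stated. RNA counts per gene, as deposited, covered 4 WT and 4 LKO livers; the methods name HISAT2 and HOMER, the submitters' processing notes also featureCounts, and the column headers carry file endings of another form, so the aligner is uncertain. The authors' own fold change, likelihood ratio, p-value and FDR columns in that table were not used. The authors deposited peak lists as signal tables of positions, used here only for overlap. All value columns used were mapped to samples by name, and 0 belonged to other samples.

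Counts were tested in edgeR 4.0.16 (R 4.3.3) with the quasi-likelihood test, library size set to total tags, no filter beyond 1 tag, and Benjamini-Hochberg adjustment over all peaks. The same fit with TMM was chosen after the data were seen as a co-reported scaling. RNA and histone mark counts had the same test, RNA with TMM and filterByExpr. H3K27ac and H3K4me3 had 2 libraries a genotype. The PPARα WT libraries counted as 1 sample, so the result of their planned test is not reported. For the class of PPARα peaks these libraries were counted singly. The pipeline was tested on simulated data. Alternatives were DESeq2 1.42.0, tags in peaks, filterByExpr, a replicate block, peaks in at least 2 of 6 peak lists, and each library left out. The deviations of same-numbered libraries had correlations of -0.05, -0.04 and 0.13, the last for WT3 and LKO3, which both captured least in peaks. The labels do not say whether the numbers mark pairs or batches, so the main test took no pairs and the replicate block stood as an alternative.

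Overlap needed 1 bp (bedtools 2.31.1), a promoter lay within 1000 bp of a start site, and sequences were read from mm9 with pysam 0.24.0. Named peaks were the 10 largest rises and falls called with groups apart and a mean of at least 20 tags, all calls and the next by unadjusted p up to 5 where fewer were called, peaks of 10 fixed genes within 20000 bp, and up to 4 called peaks of each gene list. After the data were seen the rule was also applied to the TMM calls. Cux2 chr5:122398201-122398745, Slc22a27, Adamts2, Rassf3 and Nolc1 peaks outside the rule were chosen after their values were seen. The peaks, classes, motifs and gene lists were chosen with earlier results of these data known.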

Additional observations from a re-analysis of the deposited data

Results flagged for a closer look

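Of 66 groups of 4 RNA libraries tested for one value standing apart from the others, 7 did by Dixon's 95% criterion, where chance gives about 1 in 20. Groups of 3 NCOR libraries were not tested. Acot3 stood at 50 CPM in one LKO library against 43.9 to 44.9 in the others. Ppara stood at 348 CPM in one LKO library against 217 to 236, near its WT mean of 336. Mug1 stood at 3070 CPM in one LKO library against 2370 to 2390. Srebf1 stood at 760 CPM in one LKO library against 656 to 674, and Tmeff2 at 39.0 against 35.1 to 35.7. In WT, Slc22a27 stood at 0.312 CPM in one library against 0.0582 to 0.0639, and Ddx3y at 77.1 against 84.9 to 86.5.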

How the results depend on the processing

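The 10 higher and 4 lower calls with total tags became 231 and 128 with TMM, 237 and 123 with scaling to tags in peaks, 43 and 33 with DESeq2, 6 and 2 with filterByExpr, and 10 and 2 over peaks in at least 2 of 6 peak lists. The replicate block gave 163 and 125, and with TMM 200 and 129. Whether the numbers pair the samples is not known. Not every library correlated best with its own number (WT1 with LKO2, 0.14), while WT3 and LKO3 stood at 0.13. The TMM counts became 115 and 71 with filterByExpr and 132 and 78 over peaks in at least 2 lists, and 218 and 100 where 2-fold was also asked. Leaving out one library moved the higher and lower counts from 0 to 48 and from 0 to 30 with total tags, and from 12 to 633 and from 14 to 316 with TMM. The 14 peaks called with total tags kept their call with TMM, with tags in peaks and under both block fits. With DESeq2 6 of them were called, with filterByExpr 8, and over peaks in at least 2 of 6 peak lists 11. With one library left out, the call was lost for 14 without WT2, 12 without WT1, 12 without LKO2, 8 without LKO1, 7 without WT3 and 2 without LKO3.

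By class, as the median log2 fold change less that of all peaks, PPARα peaks stood at -0.041 with the stricter PPARα set, H3K27ac peaks at -0.026 with filterByExpr, and peaks of genes with higher RNA at 0.028 with genes classed by adjusted p alone. In the main test with total tags, the median before this subtraction was -0.045 for PPARα peaks and -0.060 for H3K27ac peaks. It was 0.14 for peaks of genes with RNA at least 2-fold higher, beside -0.026 over all peaks. Leaving out one library moved promoter peaks from -0.11 to -0.046, intergenic peaks from 0.035 to 0.063, peaks with GPS2 from -0.041 to -0.0036 and without from 0.0071 to 0.079, peaks with PPARα from -0.031 to -0.0068 and without from 0.022 to 0.095, H3K4me3 peaks from -0.073 to -0.041, Pol II peaks from -0.091 to -0.042 and peaks of genes with higher RNA from 0.12 to 0.22. Gene body peaks changed sign, from -0.017 to 0.011.

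Named peaks whose log2 fold change changed sign were all uncalled. The Ncor1 intron peak stood at 0.00066 with TMM, 0.014 with tags in peaks and 0.0056 with the replicate block and TMM, and from -0.19 to 0.16 without one library. Without one library, values ran from -0.37 to 0.092 at the Cyp7a1 promoter, -0.46 to 0.033 at Pdk4, -0.56 to 0.13 and -0.53 to 0.13 at Ppara, -0.47 to 0.21 and -0.49 to 0.14 at Nr1d1, -0.42 to 0.37 and -0.072 to 0.65 at Acot3, -0.43 to 0.44 at Cyp4a14, -0.28 to 0.40 at Fgf21 and -0.69 to 0.12 at Srebf1. The cause of these shifts was not tested. With 3 libraries a genotype that differ in the share of tags in peaks, changes under 2-fold at single peaks were seldom detectable with total tags.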

Other observations

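RNA of Bcl6, of genes of growth hormone signalling and of Hdac3 was read in the same genotypes. These genes were chosen after the STAT element was seen. Bcl6, which encodes a repressor that binds it, fell from 87.0 ± 3.28 to 24.0 ± 2.76 CPM (SD, n = 4, log2 fold change -1.85, adjusted p = 1.1e-09 by edgeR). Cish and Socs2, feedback inhibitors that growth hormone induces, rose from 10.5 ± 1.79 to 23.4 ± 1.26 and from 10.6 ± 1.24 to 24.1 ± 2.68 CPM (log2 fold changes 1.16 and 1.19). Stat5b stood at 43.3 ± 0.984 and 33.8 ± 2.59 CPM (-0.34, adjusted p = 0.0021). The growth hormone receptor gene Ghr fell by 0.51 on the log2 scale, and Igf1 stood at 874 ± 14.2 and 810 ± 65.4 CPM (adjusted p = 0.19). Hdac3, the deacetylase of the complex, stood at 33.3 ± 1.75 and 30.5 ± 1.93 CPM (adjusted p = 0.20). These RNA libraries were not made from the NCOR libraries' material as far as the labels say, so they cannot be matched to LKO1, LKO2 or LKO3. The 8 NCOR peaks on chromosome Y held 41 to 88 tags in the WT and 33 to 65 in the LKO libraries, so all 6 held male chromatin. Because immunoprecipitations were pooled, these tags cannot show the sex of every animal in a library.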
